A study of Rattus norvegicus with 3 samples.

Results

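The regions described here are H3K4me3 peaks of low to moderate score that lie far from every DLX3 peak in rat enamel organ. They were taken from the deposited H3K4me3 peak list by a pair of conditions: a peak score under 1000, and no DLX3 peak within 20000 bp on the same chromosome, measured from edge to edge. Of 25094 H3K4me3 peaks, 15224 had a score under 1000 and are called weak peaks below, and 2565 of these met both conditions. These 2565 remote weak peaks made up 16.8% of the weak peaks (95% Wilson interval 16.3 to 17.5%) and 10.2% of the whole list. The other 12659 weak peaks had DLX3 nearer: 7431 overlapped a DLX3 peak by at least 1 bp, and 5228 had a DLX3 peak beside them within 20000 bp. The remote weak peaks were thus chosen by 2 measured values, the H3K4me3 score and the distance to DLX3, which are given below as descriptions.

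The data are chromatin immunoprecipitation sequencing (ChIP-seq) of wild-type adult rats. The enamel organ, the epithelium that forms tooth enamel, was dissected from the mandibular incisor, which in rats keeps growing. The series holds an input library without antibody, a DLX3 library and an H3K4me3 library, 1 of each. The titles name DLX3 and H3K4me3, which were followed, whereas the antibody field reads anti-DLX4 and anti-H3K4me4. The labels do not give the number of animals behind a library. Each antibody has 1 library, which leaves no replicate, no test and no p-value. All intervals below cover counting error over peaks, which are not independent of their neighbours. The files hold no read counts, so the depth of the libraries is unknown, and a DLX3 site may be outside the list because too few reads covered it.

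H3K4me3 is the trimethylated form of lysine 4 of histone H3. It is placed by the SET1 and MLL methyltransferase complexes, mostly around the transcription start sites of genes that are active or poised, and strong promoters tend to carry it in broad regions. DLX3 is a homeodomain transcription factor of the distal-less family that is expressed in the enamel organ, and mutations of the human gene cause tricho-dento-osseous syndrome, with thin enamel. A weak H3K4me3 peak can lie at a promoter active in few cells of a mixed tissue or at an enhancer, and the peak lists alone do not tell these apart. No gene was assigned to a region here, because positions are in build rn5 and the gene table used here is in GRCr8.

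The remote weak peaks spanned the range of scores open to them. Their score ran from 50.03 to 998.2, with a median of 131.3 and quartiles of 72.2 and 322.6. The median was 130.8 for weak peaks that overlapped DLX3 and 101.6 for those with DLX3 beside them. A score under 100 was found for 39.2% of the remote weak peaks, for 41.2% of those overlapping DLX3 and for 49.2% of those with DLX3 beside them. A score under 500 was found for 85.9%, 81.2% and 88.5% of these classes. The remote weak peaks were thus close to the overlapping ones in the lower part of the range and lay between both classes in the upper part.

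The share of peaks remote from DLX3 did not fall steadily with score. It was 15.1% for scores of 50 to 100 (Wilson interval 14.3 to 16.0%), 18.3% for 100 to 200 and 20.2% for 200 to 300. It was highest, among the score ranges used, at 20.5% for 300 to 500 (18.5 to 22.5%), and was again 15.3% for 500 to 1000 (13.9 to 16.8%). Above the limit of 1000 it was lower, with 7.47% for 1000 to 2000, 3.43% for 2000 to 3000 and 0.919% beyond. Among the 9870 H3K4me3 peaks scoring at least 1000, 429 (4.35%, interval 3.96 to 4.77%) had no DLX3 within 20000 bp. Of all 2994 H3K4me3 peaks remote from DLX3, 85.7% were therefore weak, against 57.3% of the peaks with DLX3 nearer.

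The limits cut through continuous distributions. The remote weak peaks of highest score were on chromosome X (76881361 to 76883189, score 998.2), chromosome 7 (116605001 to 116607345, 994.5), chromosome 4 (56203878 to 56205678, 993.7), chromosome 1 (99029997 to 99031429, 986.6) and again chromosome 4 (156044142 to 156045946, 985.1). They were 1433 to 2345 bp wide and lay between 22.2 kb and 1184 kb from DLX3. The remote peaks just above the limit, on chromosomes 4, 19 and X, had scores of 1003, 1004 and 1006 and widths of 1484, 1961 and 1424 bp. At the distance limit, the nearest members were 20010, 20024 and 20027 bp from DLX3, on chromosomes 11, 3 and 9, with scores of 145.9, 63.3 and 605.8. The weak peaks just within it were 19995, 19989 and 19983 bp away, on chromosomes 12, 4 and 7, with scores of 82.1, 54.5 and 59.9. The share of weak peaks that were remote was 25.1% with a limit of 10000 bp, 8.37% with 50000 bp, and 32.4% when DLX3 peaks in the lower 50% by score were left out.

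Remote weak peaks were narrower than other weak peaks. Their median width was 1121 bp (quartiles 821 and 1543 bp, range 280 to 4392 bp). Weak peaks with DLX3 beside them had a median of 1189 bp, and those overlapping DLX3 had 1518 bp. Of the remote weak peaks, 1718 (67.0%, Wilson interval 65.1 to 68.8%) were narrower than the median of 1381 bp of all weak peaks with DLX3 nearer, where the latter give 50% by construction. Widths over 2000 bp were found in 10.6% of the remote weak peaks and in 27.9% of those overlapping DLX3. A wider peak has more room to overlap DLX3, and the part of this in the difference from the overlapping peaks was not tested.

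Width and score rise together, so widths were set side by side within 5 equal score classes of the weak peaks. In the lowest class, with scores up to 63.64, the median width was 766 bp for remote weak peaks and 998 bp for those with DLX3 nearer. In the highest class, from 399.7 upward, the medians were 1716 and 1997 bp. The difference lay between 232 and 280.5 bp in the 5 classes. From the lowest to the highest class, 74.6%, 79.0%, 74.1%, 69.0% and 66.1% of the remote weak peaks were below the median of the nearer peaks of their class. In each class the median of the remote weak peaks was also below that of the peaks with DLX3 beside them without overlap, which were 877, 1017, 1213, 1468 and 1892 bp wide at the median. Pooled over all scores under 1000, the median width of the remote weak peaks was below that of the weak peaks with DLX3 nearer on each of the 21 chromosomes.

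**Figure D1:**
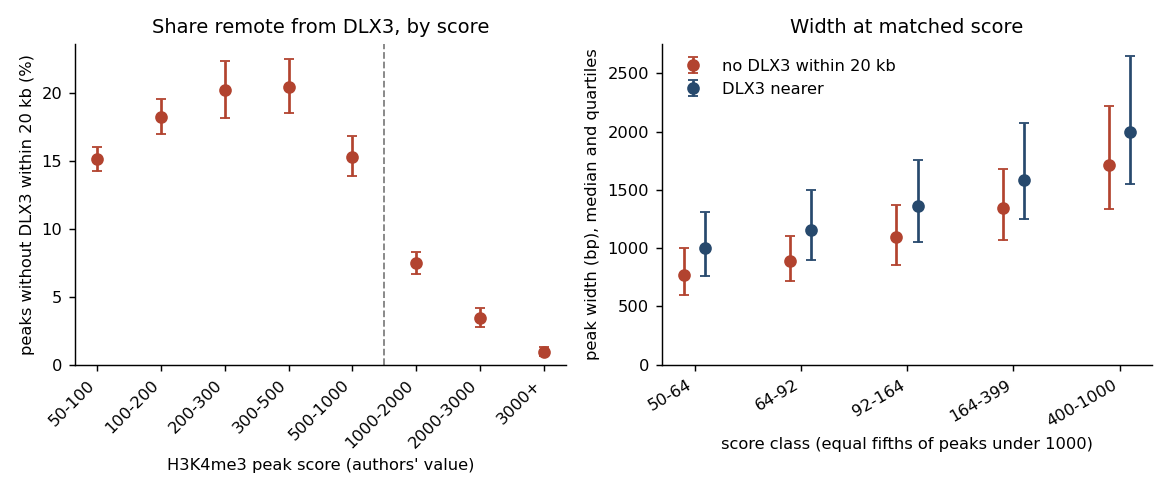
Left, percentage of H3K4me3 peaks without DLX3 within 20 kb in ranges of the authors' peak score, with 95% Wilson intervals and the limit of 1000 as a dashed line; the share peaks at 20.5% for scores of 300 to 500 and is 0.919% at the top. Right, median peak width in bp with quartiles in 5 equal score classes of weak peaks; the remote weak peaks lie 232 to 280.5 bp lower in each class.

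Seen the other way, remote weak peaks had higher scores for their width. In the narrowest of 5 equal width classes, 280 to 897 bp, 26.4% of the weak peaks were remote, and in the widest, 1994 to 22306 bp, 9.09% were. Within the narrowest class the median score was 72.4 for remote weak peaks and 66.6 for those with DLX3 nearer. Within the fourth class, 1500 to 1993 bp, the medians were 319.4 and 177.6. In the widest class they were 507.6 and 342.8.

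The 5 widest remote weak peaks were 3909 to 4392 bp long, and 4 of them had scores above 600. The widest, 4392 bp on chromosome 5 (41323837 to 41328228), had a score of 444.3 and lay 42.9 kb from DLX3. The next, 4219 bp on chromosome 3 (63384036 to 63388254), had a score of 607.6 and another H3K4me3 peak 654 bp away. On chromosome 14 (13013895 to 13017830) a peak of 3936 bp had a score of 609.8. On chromosome 2 (156479132 to 156483043) a peak of 3912 bp had a score of 772.1, with its nearest neighbour at 695 bp and DLX3 441 kb away. The fifth, 3909 bp on chromosome 7 (97079047 to 97082955), had a score of 603.4 and lay 615 kb from DLX3 and 433 kb from any other H3K4me3 peak.

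Distances to DLX3 covered a wide range. The median was 49819 bp, with quartiles of 30374 and 107598 bp. Of the remote weak peaks, 1290 (50.3%) lay 20 to 50 kb from the nearest DLX3 peak, 586 (22.8%) at 50 to 100 kb, 344 (13.4%) at 100 to 200 kb and 223 (8.69%) at 200 to 500 kb. Distances of 500 kb to 1 Mb were found for 71 peaks and longer ones for 51 (1.99%, Wilson interval 1.52 to 2.60%). Median scores in these 6 ranges, from near to far, were 126.0, 131.4, 139.2, 159.9, 126.3 and 149.8, with overlapping quartiles and no steady course. Median widths were 1149, 1102, 1122, 1082, 1064 and 858 bp. The DLX3 peak nearest to a remote weak peak had a median score of 84.9, with quartiles of 60.75 and 134.5. The median was 94.0 for that nearest to weak peaks with DLX3 beside them and 119.0 for weak peaks overlapping DLX3. Over the whole DLX3 list it was 92.3, with overlapping quartiles of 64.5 and 160.0.

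The peaks farthest from DLX3 were on chromosome X in 4 of the 5 cases named. A pair 83 bp apart (92498801 to 92499313, score 78.4, and 92498347 to 92498717, score 67.0) lay 8.14 Mb from DLX3. They were 513 and 371 bp wide. In the same stretch of 16961 kb without DLX3 were peaks at 91553217 to 91553669 (453 bp, score 61.0, 7.20 Mb from DLX3) and 94949135 to 94950699 (1565 bp, score 801.2, 6.37 Mb). The exception was on chromosome 18 (85910393 to 85912575, 2183 bp, score 357.9), 5.06 Mb from DLX3. Of these 5, the peaks of 1565 and 2183 bp were above the median of the remote weak peaks in width and score, and the other 3 were below it in both.

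Outside the DLX3 peaks, the density of weak peaks fell gradually with distance from DLX3, with no step at 20 kb. Here the distance was taken from the midpoint of each H3K4me3 peak, and the length of sequence at each distance was computed from the DLX3 list. With the midpoint inside a DLX3 peak there were 78.9 weak peaks per Mb, and up to 2 kb from DLX3 there were 9.05. At 2 to 5 kb from DLX3 there were 6.08 weak peaks per Mb, at 5 to 10 kb 5.43, and at 10 to 20 kb 4.64. Beyond the limit the density was 3.78 at 20 to 30 kb, 3.09 at 30 to 50 kb, 2.05 at 50 to 100 kb and 1.27 at 100 to 200 kb. It was 0.654 at 200 to 500 kb, 0.328 up to 1 Mb and 0.147 farther out. The median width of weak peaks was 1488 bp inside DLX3 peaks. Outside them it declined from 1266 bp within 2 kb to 1210 bp at 10 to 20 kb, 1180.5 bp at 20 to 30 kb and 1125 bp at 30 to 50 kb. Peaks with a score of 1000 or more were denser than weak peaks inside DLX3 peaks, with 93.0 per Mb, and sparser at each distance outside them. They had 0.914 per Mb at 2 to 5 kb, 1.26 at 5 to 10 kb, 0.738 at 20 to 30 kb and 0.146 at 100 to 200 kb.

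Sequence over 20 kb from DLX3 amounted to 1868 Mb, 64.4% of the summed chromosome lengths, and held 1.37 weak H3K4me3 peaks per Mb. The remaining sequence held 12.3 weak peaks per Mb. For peaks with a score of 1000 or more the densities were 0.230 and 9.14 per Mb. Sequence that could not be mapped is counted in these lengths, since the lists do not mark it. With the stretches over 5 Mb left out, the density of remote weak peaks was 1.61 per Mb.

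Whether the remote weak peaks gathered in long stretches without DLX3 was asked next. A stretch is the sequence between a DLX3 peak and the next one, and it can hold a remote weak peak only if it exceeds 40 kb, except at the ends of chromosomes. There were 10774 stretches with sequence over 20 kb from DLX3, and 1796 of them (16.7%, Wilson interval 16.0 to 17.4%) held a remote weak peak. Stretches of 200 kb or more contained 1273 of the 2565 remote weak peaks (49.6%, interval 47.7 to 51.6%). They contained 80.7% of the sequence over 20 kb from DLX3, so the peaks lay less in long stretches than the available sequence did. Without stretches over 5 Mb these values were 48.8% of the peaks and 77.0% of the sequence.

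The density within stretches fell with their length. Counted over the sequence more than 20 kb from DLX3, stretches of 40 to 60 kb held 4.34 remote weak peaks per Mb and those of 60 to 100 kb held 4.29. The density was 3.14 per Mb for 100 to 200 kb, 1.98 for 200 to 500 kb, 0.947 for 500 kb to 1 Mb, 0.517 for 1 to 5 Mb and 0.133 beyond. A long stretch was still more likely to hold a remote weak peak, with 3.68% of those of 40 to 60 kb and 51.4% of those of 1 to 5 Mb. Each long stretch also offers far more such sequence. The 3528 stretches of 40 to 60 kb had 31.4 Mb of it in total, and the 327 of 1 to 5 Mb had 599.6 Mb. Scores did not follow this order, with medians of 120.8, 121.4, 131.3, 127.1, 163.8, 148.9 and 121.4 from the shortest to the longest class. Within stretches that had 100 kb or more of such sequence, 56.6% of the remote weak peaks (interval 54.1 to 59.0%) had their midpoint in the outer 50% of it, next to DLX3, where an even spread would give 50%. The share of members in stretches of 200 kb or more was 79.9% with a distance limit of 50000 bp, which leaves out stretches under 100 kb by construction, and 23.5% of the members were in stretches of 500 kb or more.

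**Figure D2:**
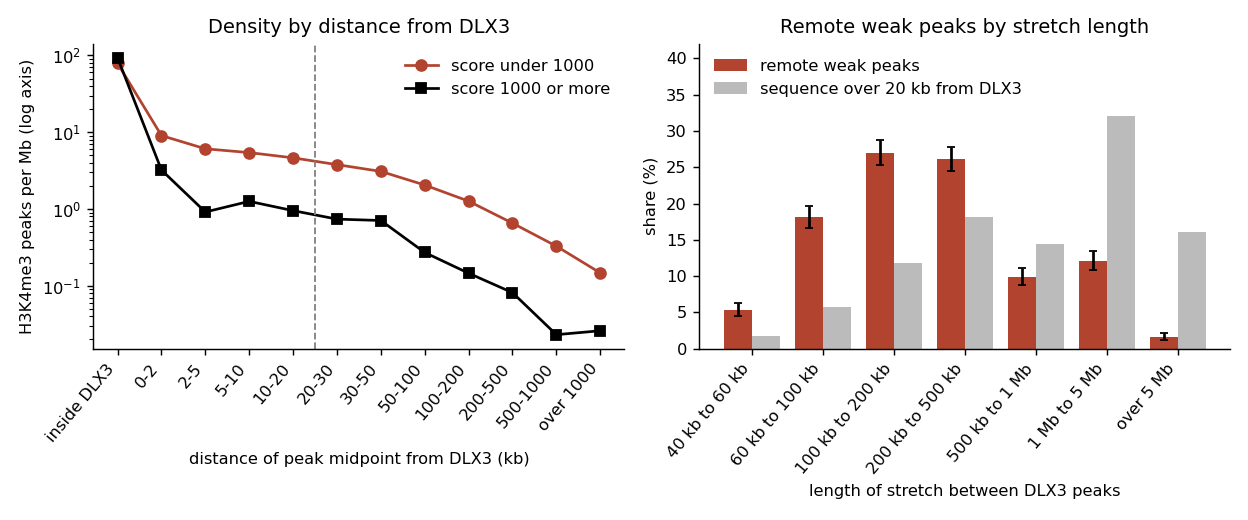
Left, H3K4me3 peaks per Mb (log axis) by distance of the peak midpoint from the nearest DLX3 peak, for scores under 1000 and of 1000 or more, with the 20 kb limit dashed; weak peaks go from 4.64 to 3.78 per Mb across the limit. Right, percentage of the 2565 remote weak peaks (with 95% Wilson intervals) and of the sequence over 20 kb from DLX3 in stretches of each length; stretches of 1 to 5 Mb hold 32.1% of that sequence and 12.1% of the peaks.

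Within the stretches the remote weak peaks were mostly few. Of the 1796 occupied stretches, 1297 held 1 remote weak peak, 344 held 2, 90 held 3 and 41 held 4. The 24 stretches with 5 or more held 146 peaks, 5.69% of all. The fullest held 8 each. That on chromosome 2 (71039840 to 71440310) was 400.5 kb long, and its 8 H3K4me3 peaks were all remote and weak, with scores of 52.2 to 292.8. That on chromosome 18 (30477995 to 30647987) was 170 kb long and held 8 remote weak peaks among 9 H3K4me3 peaks.

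A pair of the fullest stretches were on chromosome X, and a further one was on chromosome 1. The stretch of 1447 kb on X (73356574 to 74804021) held 8 remote weak peaks with scores up to 914.0, and that of 3242 kb (140170448 to 143412433) held 8 with scores up to 352.9. The fifth, on chromosome 1 (66568832 to 71238534), was 4670 kb long and held 7, with a median score of 150.4, beside 2 remote peaks of 1000 or more. It was 1 of 5 stretches with 7 and was named as the first of them by position.

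Remote weak peaks did follow one another along the chromosomes. Of those with a further H3K4me3 peak downstream, 926 of 2560 (36.2%, Wilson interval 34.3 to 38.1%) had another remote weak peak as the next H3K4me3 peak of any score, whereas 10.2% of the whole list were such peaks. After a weak peak with DLX3 nearer, the next was a remote weak peak in 6.37%. After a remote peak with a score of 1000 or more it was one in 31.1% (26.9 to 35.6%), an interval that overlaps that of the remote weak peaks. Neighbouring H3K4me3 peaks can share the same DLX3 surroundings, and the part of this in the succession was not tested. With peaks of score under 100 not counted as members the share was 21.7%. Members were then 1559 of the 25094 H3K4me3 peaks, a lower base share than before. The peaks left out also break runs, and the part of each in the lower value was not tested.

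Successive remote weak peaks formed 1639 runs, of which 1089 were a lone peak. There were 338 runs of 2, 122 of 3, 51 of 4 and 39 of 5 or more. Runs of 3 or more contained 800 peaks, 31.2% of the remote weak peaks. The 550 runs of 2 or more had a median span of 81.3 kb, with quartiles of 17.4 and 376.1 kb. In 391 of them (71.1%) no DLX3 peak lay between the first and the last peak, and in the others DLX3 occurred between peaks that were each over 20 kb from it. By the rule, no DLX3 peak can lie between remote weak peaks less than 40 kb apart. For runs of short span the absence of DLX3 was thus fixed in advance.

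There was 1 run of 9 peaks and there were 5 of 8, which are given in the order of their span. Of these 6 runs, 4 were on chromosome X, 1 on chromosome 2 and 1 on chromosome 18. The longest had 9 peaks over 4320 kb on X (107641310 to 111961618) with 2 DLX3 peaks inside. Its scores, in the order of position, were 111.1, 252.8, 212.6, 120.2, 79.2, 536.7, 70.5, 156.0 and 482.1. The distance to DLX3 reached 1829 kb at the second of these peaks. The highest scores were at the sixth and the last peak, and 3 pairs within the run were 6.11, 0.505 and 2.10 kb apart among gaps of 240 kb or more.

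The other runs on X had 8 peaks each. That from 140218105 to 143321526 held no DLX3 and had a median score of 77.8. That from 135620461 to 137741296 held 1 DLX3 peak and had a median score of 76.2, with 813.3 at its first peak. That from 73462693 to 74429578 spanned 967 kb with a median score of 302.2, and its last 7 peaks were parted from the first by 747.8 kb.

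**Figure D3:**
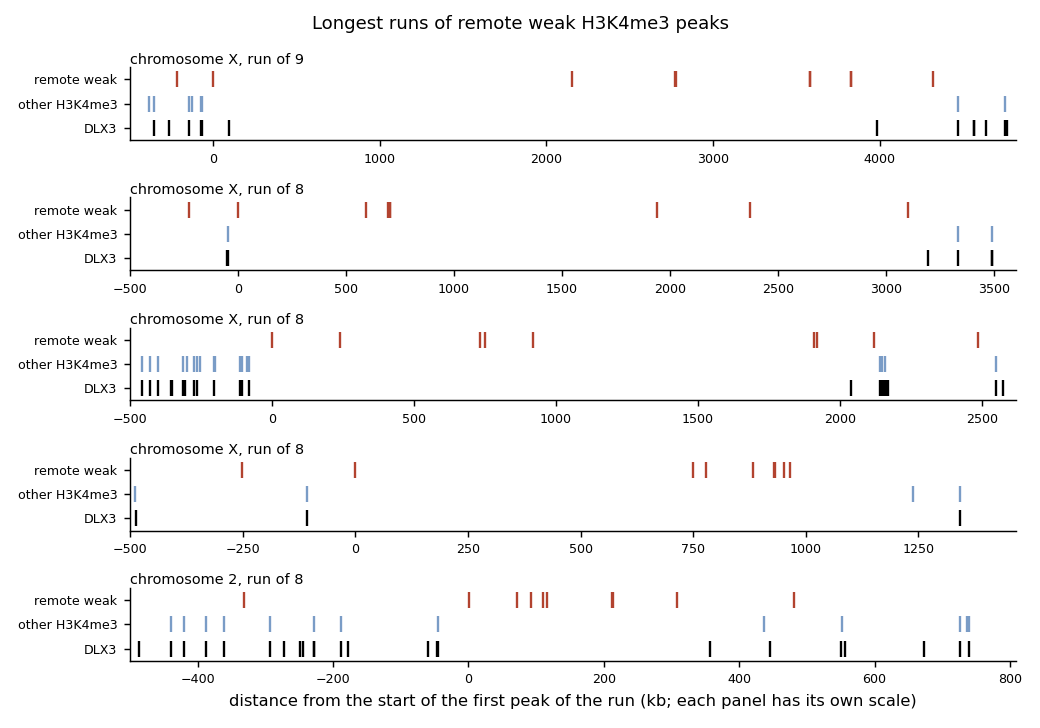
Positions of remote weak H3K4me3 peaks, other H3K4me3 peaks and DLX3 peaks, as distance in kb from the start of the run, for the run of 9 peaks and the 4 runs of 8 with the widest span, with 500 kb on each side. The 4 runs on chromosome X span 967 to 4320 kb and the run on chromosome 2 spans 309 kb, and 3 of the 5 have no DLX3 peak between their first and last peak.

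The runs on chromosomes 2 and 18 were the most compact of these 6. On chromosome 2, the 8 peaks of the run lay in 309 kb (71084035 to 71393209) and had scores of 169.8, 128.5, 176.4, 83.6, 292.8, 59.2, 116.5 and 52.2 in the order of position. Their widths were 1012, 939, 1904, 771, 1395, 1487, 1171 and 618 bp. The distance to DLX3 grew from 44.2 kb at the first peak to 159.5 kb at the fifth and fell to 47.1 kb at the last. The highest score of the run was at the peak farthest from DLX3. The run on chromosome 18 (30508906 to 30604761) was denser still, with 8 peaks in 95.9 kb, gaps of 2.20 to 24.9 kb and scores of 51.8 to 280.4.

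By windows of 1 Mb, remote weak peaks were spread widely. Of 2911 windows, 1385 (47.6%) held at least 1 remote weak peak, and 64.0% held a weak peak with DLX3 nearer. The classes numbered 2565 and 12659 peaks. A larger class can fill more windows, so these shares do not compare how widely the classes spread. Windows with 5 or more numbered 57 and contained 334 peaks, 13.0% of all. The fullest, on chromosome 18 (30000001 to 31000000), held 11 remote weak peaks among 27 H3K4me3 peaks, beside 27 DLX3 peaks. The next were on chromosome 7 (142000001 to 143000000) with 10, chromosome 2 (71000001 to 72000000) with 9, chromosome 17 (87000001 to 88000000) with 9 and chromosome 1 (14000001 to 15000000) with 7. The last was tied with further windows that held 7 and was named by position. Each of these 5 windows also held 10 to 33 DLX3 peaks, so the densest groups of remote weak peaks were not in megabase regions devoid of DLX3. Windows with a remote weak peak and no DLX3 peak numbered 90, with 117 peaks.

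Remote weak peaks stood farther from other H3K4me3 peaks. The nearest other H3K4me3 peak of any score was 40229 bp away at the median (quartiles 11324 and 104607 bp), against 9238 bp for weak peaks overlapping DLX3 and 6571 bp for those with DLX3 beside them. Another peak lay within 10000 bp of 592 remote weak peaks (23.1%, Wilson interval 21.5 to 24.8%). The same was found for 51.6% (50.5 to 52.8%) of those overlapping DLX3 and 58.7% (57.4 to 60.1%) of those with DLX3 beside them. The rule itself lowers this share for the remote weak peaks. A neighbour within 10000 bp that overlaps DLX3 mostly brings DLX3 within 20000 bp. How much of the wider spacing comes from the rule was not tested. No other peak lay within 100000 bp of 669 remote weak peaks (26.1%), against 5.17% of the weak peaks with DLX3 nearer. The share with a neighbour within 10000 bp was between 21.3% and 26.6% in the 5 score classes, against 51.2 to 55.9% for the nearer peaks, and the median gap was longer on each of the 21 chromosomes.

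Close neighbours of remote weak peaks were mostly of their own kind. Of the 592 with a peak within 10000 bp, the nearest was another remote weak peak for 507 (85.6%), a weak peak with DLX3 beside it for 51 and a peak of 1000 or more for 34. The nearest was a weak peak overlapping DLX3 for 0 of the 592. Such a neighbour within 10000 bp mostly brings DLX3 within 20000 bp. The rule itself thus raises the share of 85.6%, by an amount that was not tested. Over all 2565 remote weak peaks, the nearest peak at any distance was another of them for 43.3%. Among peaks with a neighbour within 10000 bp, the nearest was of the same class for 28.6% of weak peaks with DLX3 beside them. For weak peaks overlapping DLX3 it was 42.8%. These 2 classes made up 20.8% and 29.6% of all H3K4me3 peaks, and the remote weak peaks 10.2%. A peak of 1000 or more lay within 10000 bp of 1.56% of the remote weak peaks (1.15 to 2.12%) and of 28.4% of those with DLX3 nearer. As given above, 4.35% of the peaks of 1000 or more were themselves remote from DLX3. Of the peaks of 1000 or more, 77.4% to 97.2% overlapped DLX3, depending on the score range. The rule keeps most such peaks from lying within 10000 bp of a remote weak peak, and the size of its part in this difference was not tested. At the wider limit of 100000 bp the shares were 43.5% and 80.0%. For 126 remote weak peaks (4.91%) no such peak lay within 1 Mb, against 0.355% of the nearer ones.

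A number of these neighbours nearly adjoined. Another H3K4me3 peak lay within 1000 bp of 240 remote weak peaks (9.36%), and for 227 of these the nearest peak was remote and weak too. The rule bears on this count in the same way as above. After joining H3K4me3 peaks within 1000 bp to 1 region, 2437 remote weak regions were left and 15.3% of them had a neighbour within 10000 bp. Counting neighbours within 50000 bp gave 56.3%.

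**Figure D4:**
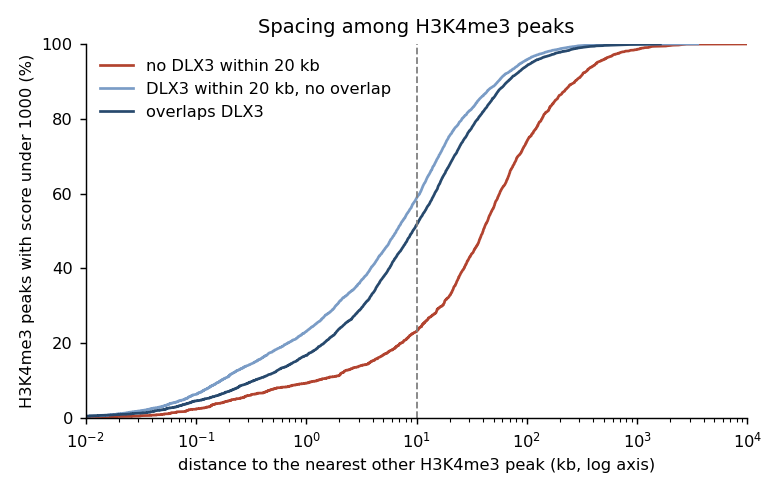
Cumulative percentage of weak H3K4me3 peaks by distance to the nearest other H3K4me3 peak (kb, log axis), for remote weak peaks, weak peaks with DLX3 beside them and weak peaks overlapping DLX3. At 10 kb (dashed) the curves stand at 23.1%, 58.7% and 51.6%.

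All 21 chromosomes carried remote weak peaks, from 52 on chromosome 19 to 289 on chromosome 1. Their share of the weak peaks was lowest on chromosome 10 with 9.40% (112 of 1191, Wilson interval 7.87 to 11.2%) and highest among the autosomes on chromosome 2 with 23.1% (226 of 980, 20.5 to 25.8%). Chromosome 18 had 22.0% and chromosome 20 had 11.1%. Across the 20 autosomes the share was lower where DLX3 peaks were denser (Pearson's r -0.76, Spearman's rho -0.67), which the rule leads to. Median scores of the remote weak peaks were 100.3 to 155.7 on the autosomes, and median widths 936 to 1366 bp.

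Chromosome X stood apart. Of its 394 weak peaks, 164 (41.6%, Wilson interval 36.9 to 46.5%) were remote, against 16.2% on the autosomes. It held 6.39% of the remote weak peaks (5.51 to 7.41%) and 1.82% of the weak peaks with DLX3 nearer (1.60 to 2.06%). X had 4.63 DLX3 peaks per Mb, where the autosomes ranged upward from 16.1. Accordingly 88.8% of its span lay over 20 kb from DLX3, against 42.7 to 73.9% of the span of each autosome.

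Per Mb of sequence over 20 kb from DLX3, X was not rich in remote weak peaks, with 1.19 against 1.39 over the autosomes and 0.884 to 2.55 on the single autosomes. Those on X had a median score of 211.4, above the median of each autosome, a median width of 1145 bp and a median distance to DLX3 of 199663 bp. Of the remote weak peaks over 1 Mb from DLX3, 29.4% (18.7 to 43.0%) were on X, and of those at 20 to 50 kb, 2.33% (1.63 to 3.30%). On X, 50.6% of the remote weak peaks were in runs of 3 or more, against 29.9% on the autosomes. The next H3K4me3 peak was a remote weak peak for 82 of 164 of them on X and for 844 of 2396 on the autosomes (35.2%). Such peaks made up 26.6% of the H3K4me3 peaks on X and 9.81% on the autosomes, and relative to these base shares the succession was not higher on X. X held 10.5% of the remote weak peaks with a distance limit of 50000 bp.

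**Figure D5:**
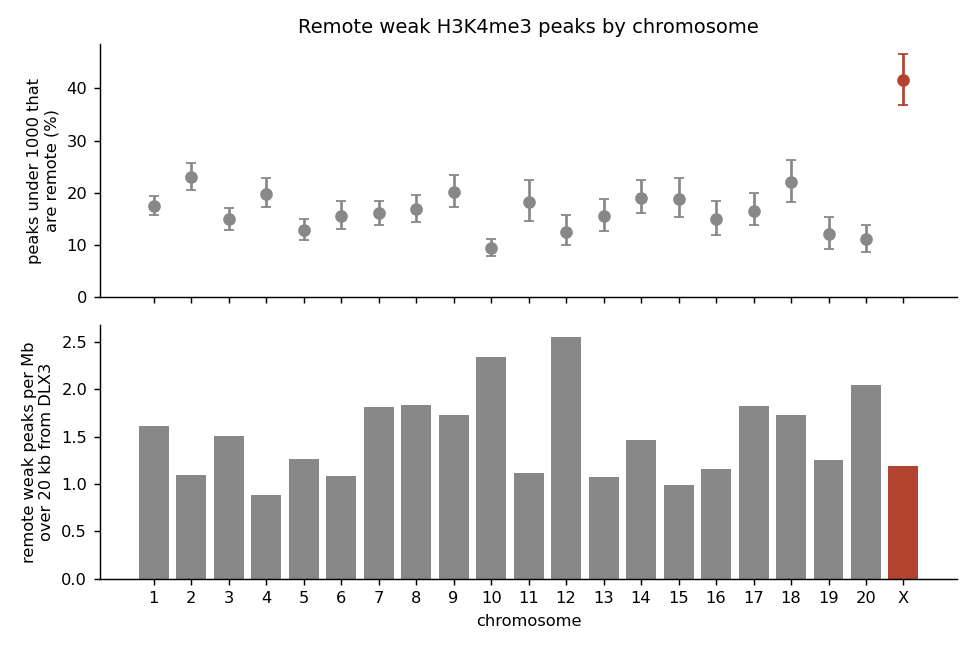
Top, percentage of the weak H3K4me3 peaks of each chromosome that are remote from DLX3, with 95% Wilson intervals; X stands at 41.6% and the autosomes between 9.40% and 23.1%. Bottom, remote weak peaks per Mb of sequence over 20 kb from DLX3; X, at 1.19, lies within the autosomes' range of 0.884 to 2.55.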

How the data were processed

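ChIP-seq peak lists of 1 DLX3 and 1 H3K4me3 library of rat enamel organ were analysed, and the input library has no list here. The submitters' processing notes name build rn5 and the tools HOMER, MACS 1.4.2 and Bowtie 1.1.2, without roles. Cutoffs and the use of the input in peak calling are not given in the sources used here. Each list gives a position and a score per peak, deposited by the authors. MACS of this version usually writes a multiple of -log10 p there, but no header says so, and scores were compared only within the H3K4me3 list or within the DLX3 list. Read depth is unknown.

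Starts are counted from 1. Gaps are the bases between peak edges. Distances, classes, runs and stretches were computed in Python 3.11.15 (pandas 2.3.3, numpy 2.4.6) and checked on simulated lists, and bedtools 2.31.1 gave the same 2565 members. The span of a chromosome is the largest peak end in either list. Shares carry 95% Wilson intervals. Regions were named by rule: the extreme members by score, width and distance, those at the limits, and the 5 fullest runs, stretches and windows of 1 Mb, with runs of equal number ordered by span and other ties by chromosome and start. The sixth run (a tie with the 4 before it), density by distance, width classes and the place within a stretch were chosen after values were seen. The members and measures were chosen with earlier results of these data known. Alternatives covered the distance and score limits, the DLX3 list, joined H3K4me3 peaks, chromosome X, and the neighbour and stretch lengths. Genes, promoters and sequences were not used here, since the tables in hand are in GRCr8.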

Additional observations from a re-analysis of the deposited data

How the results depend on the processing

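Of 44 recomputed values for 6 shares, 16 stayed within the Wilson interval of the reported value and 28 did not. With distance limits of 10000 and 50000 bp, 25.1% and 8.37% of the weak peaks were remote, 4.81% and 10.5% of the members were on X, 36.0% and 79.9% were in stretches of 200 kb or more, and 24.8% and 20.9% had a neighbour within 10000 bp. With the upper 50% of DLX3 peaks by score, 32.4% were remote, 4.67% of them on X, 58.1% in such stretches, 64.7% narrower than the nearer median, 28.9% with a neighbour, and 44.7% followed by a member. Fewer DLX3 peaks enlarge the class by construction, here to 4928 of the 25094 H3K4me3 peaks, against 2565. The base share to set beside the 44.7% was thus higher too. For this DLX3 list and the other distance limits, the share of sequence in stretches of 200 kb or more is not given. With scores of 100 or more, 18.2% were remote, 7.70% of them on X, 51.9% in stretches of 200 kb or more, 68.8% narrower and 21.7% followed by a member. With scores under 500, 69.0% were narrower and 31.1% were followed by a member. These score limits left 1559 and 2203 members, so the base shares beside the 21.7% and the 31.1% were lower too. Joining H3K4me3 peaks within 1000 bp gave 18.4% remote, 15.3% with a neighbour and 33.1% followed by a member. Leaving out X gave 16.2% remote and 47.1% in long stretches. Stretches of 500 kb or more held 23.5%, and neighbours within 50000 bp were found for 56.3%. For the other shifts, the cause was not tested. No paired analysis was possible because each antibody has 1 library, so none could be left out in turn.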

Other observations

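The 429 H3K4me3 peaks scoring at least 1000 with no DLX3 within 20000 bp, which are no remote weak peaks, were set beside the remote weak peaks. Their median width was 1967 bp, against 2538 bp for all peaks of 1000 or more, and their scores were also lower (median 1629 against 2251). They were narrower within score ranges too. For scores of 1000 to 2000 the median width was 1936.5 bp, against 2285 bp for peaks with DLX3 nearer. For 2000 to 3000 the medians were 1977.5 and 2499 bp. From 3000 upward, with 27 remote peaks, they were 2479 and 3064.5 bp. Another H3K4me3 peak lay within 10000 bp of 43 of them (Wilson interval 7.53 to 13.2%), a lower share than the 23.1% of the remote weak peaks. On chromosome X were 30 of them (6.99%, interval 4.94 to 9.81%), a share whose interval overlaps that of the remote weak peaks.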
